A study of Arabidopsis thaliana with 8 samples.

Results

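The response of juvenile Arabidopsis thaliana shoots to submergence was described as the difference between 2 arrays of submerged plants and 2 arrays of plants kept dark in air, which are 4 of the 8 arrays of the study and were chosen by their source labels. Juvenile plants were 2 weeks old. They stood under deionised water in tanks for 24 h from the end of the light phase, or in the same kind of tank without water for the same 24 h, so all 4 arrays share the 24 h treatment time, and the labels call both treatments dark. The other 4 arrays hold plants of 3 weeks, treated likewise and called adult. No strain, allele or transgene was named in the labels. Sample titles speak only of dark for the submerged plants, whereas the source, description and treatment labels give submergence, and groups were taken from the source. No label tells whether the 2 samples of a group came from separate plants or pools, so the p-values below measure the spread between these samples, which may be technical.

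Water slows the diffusion of gases, so submerged tissue in the dark loses oxygen while the gaseous hormone ethylene is trapped in it. Plant cells read low oxygen through group VII ERF transcription factors: plant cysteine oxidases use oxygen to oxidise the amino-terminal cysteine of these proteins, which marks them for destruction by the N-degron pathway, and at low oxygen the factors persist and switch on genes of fermentation and sugar breakdown. Fermentation regenerates the NAD+ that glycolysis needs when mitochondrial respiration stalls. Darkness alone already brings carbon starvation, so a dark control separates the water from the lack of light.

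Expression was given in log2 units at 27826 loci per array. Values below are log2 expression levels unless called a change, and a change is submerged minus control on the log2 scale with its standard error (SE). A locus was called at an adjusted p under 0.05 (limma, Benjamini-Hochberg over all loci). Of 27826 loci, 15.5% were called higher in submerged plants and 18.8% lower, 34.2% in all, and these shares are the background for every count below. The arrays of the groups did not overlap at 67.3% of all loci, all 9525 called loci among them, so non-overlap adds nothing to a call. Levels of different genes were ranked to sort dim from bright loci, but not compared as amounts of RNA, since probes differ in brightness. No detection calls were used, so low values may lie at the arrays' background, and a change from or to such a value may be understated. A change in bulk tissue cannot tell fewer cells of a type from less RNA per cell. Array medians of the 4 juvenile arrays lay between 6.13 and 6.30. Submerged medians were 0.13 above control medians on average, and the median change over all loci was -0.05. After centring each array on its median, 34.3% of calls were higher in place of 45.2%.

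The rises were larger than the falls. At least 4-fold changes were called for 1291 loci that rose and 436 that fell. At 16-fold or more the counts were 331 and 31, and at 64-fold or more they were 48 and 2. Among the dimmest 25% of loci by mean level, 2.62% were called higher and 1.80% lower, whereas in the brightest 25% the shares were 19.2% and 26.3%. Of 14 plastid loci 0 were called (limma; 1 at an unadjusted p under 0.05), and of 92 mitochondrial loci 2 were called higher and 2 lower, the others being nuclear.

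**Figure D1:**
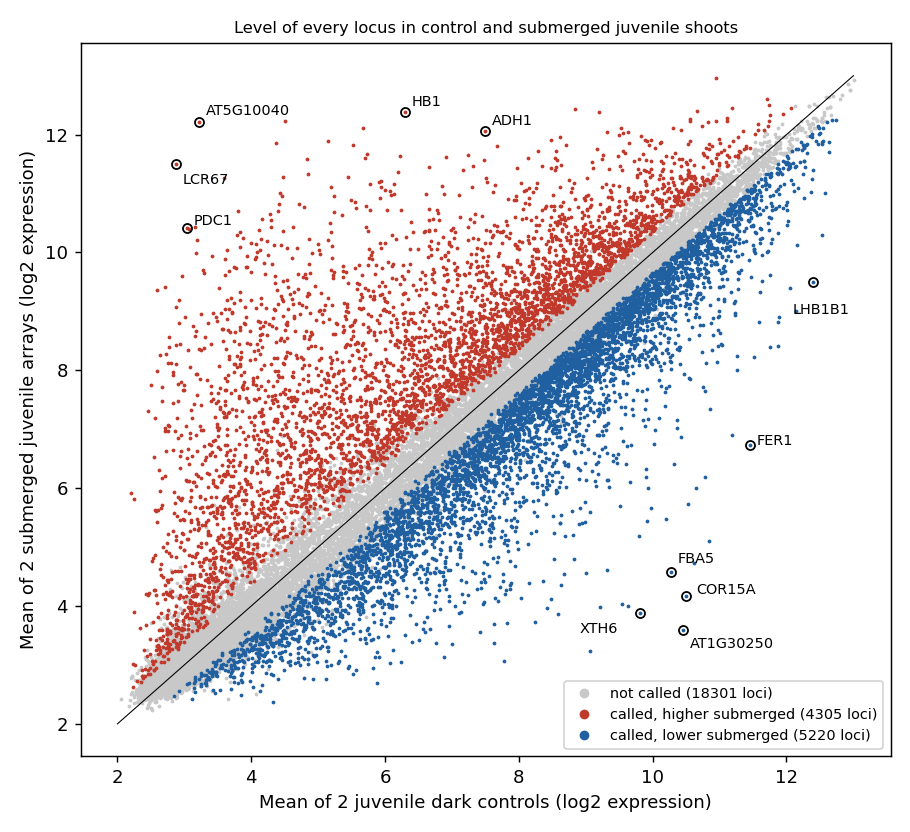
Each point is 1 of 27826 loci, with the mean of the 2 juvenile dark controls on the horizontal axis and the mean of the 2 submerged juvenile arrays on the vertical axis, both in log2 expression. Red points were called higher in submerged plants (4305), blue points lower (5220) and grey points were not called. The largest rises begin from dim control levels, which the scale partly fixes, since no value exceeds 13.05. The line marks equal levels.

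A small set of loci, chosen after the values were seen, went from dim to bright. Of loci at or below the 25th percentile of control levels, 8 stood at or above the 90th percentile in submerged plants, and 0 went the other way. AT5G10040, a locus without a symbol in the RefSeq table, stood at 3.36 and 3.08 in the controls and 12.25 and 12.18 in submerged plants, a rise of 8.99 (SE 0.14, adjusted p = 1.1e-06) on the log2 scale, the largest measured rise of all loci. LCR67 (AT1G75830), a gene of the defensin family of small antimicrobial peptides, stood at 2.85 and 2.90 and then at 11.50 and 11.51. The other 6 were PDC1 (AT4G33070), SRO4 (AT3G47720), YLS9 (AT2G35980), AT1G12805, AT2G17850 and AT4G24110, with rises between 6.53 and 7.37.

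The enzymes that carry pyruvate into ethanol fermentation rose, while those that feed sucrose into glycolysis moved both ways. Of 16 loci listed for fermentation, sucrose entry and the alanine and GABA side branches, 11 were called higher, against 15.5% of all loci, and 2 lower, with a median change of 2.21. PDC1, a pyruvate decarboxylase, stood at 3.08 and 3.00 in the controls and at 10.43 and 10.39 in submerged plants, a rise of 7.37 (SE 0.14, adjusted p = 1.8e-06). PDC2 (AT5G54960), its paralog, was already bright in air at 8.30 and 7.98 and reached 10.25 and 10.32. ADH1 (AT1G77120), the alcohol dehydrogenase that turns acetaldehyde into ethanol, went from 7.57 and 7.41 to 12.04 and 12.09, a rise of 4.57 (SE 0.11, adjusted p = 2.9e-06).

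The sucrose synthases, which split sucrose into fructose and UDP-glucose without spending ATP, did not move as one family. SUS4 (AT3G43190) rose from 4.29 and 4.40 to 10.20 and 10.05, a change of 5.78 (SE 0.19, adjusted p = 5.0e-06). SUS1 (AT5G20830) rose from 6.62 and 6.82 to 10.61 and 10.52, a change of 3.84 (SE 0.12). SUS3 (AT4G02280) fell from 7.43 and 7.22 to 5.64 and 5.78, a change of -1.61 (SE 0.16, adjusted p = 3.1e-04). SUS2, SUS5 and SUS6 were not called, with changes between -0.10 and 0.09. Among the cytosolic invertases, which split sucrose by hydrolysis, CINV2 (AT4G09510) rose by 1.11 (SE 0.20) from 4.21 and 4.37 to 5.38 and 5.42. CINV1 (AT1G35580) changed by -0.51 (SE 0.12), but without control replicate 1 its adjusted p was 0.079, without control replicate 2 it was 0.060 and without submerged replicate 1 it was 0.057, so the list then had 1 locus called lower.

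Both alanine aminotransferases, which store pyruvate carbon as alanine, rose: AlaAT1 (AT1G17290) by 2.16 (SE 0.11) to 11.68 and 11.61, and ALAAT2 (AT1G72330) by 2.26 (SE 0.17) to 10.01 and 9.56. Glutamate decarboxylase, which makes GABA, was represented by GAD4 (AT2G02010), which rose from 3.64 and 3.84 to 8.30 and 7.63, and by GAD (AT5G17330), which rose from 6.56 and 5.77 to 8.92 and 8.82. The 2 submerged arrays differed more for GAD4 than for PDC1 or ADH1. AT4G17260, a listed locus with no symbol in the RefSeq table, rose by 2.67 (SE 0.16).

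Oxygen sensing genes mostly rose, but their protein families were not uniform. Of 18 listed loci 12 were called higher and 2 lower, with a median change of 1.53. Of the 5 plant cysteine oxidases, PCO1 (AT5G15120) rose from 4.09 and 4.22 to 10.51 and 10.62, a change of 6.41 (SE 0.13, adjusted p = 1.8e-06). PCO2 (AT5G39890) rose from 4.96 and 4.70 to 11.57 and 11.62, a change of 6.76 (SE 0.16, adjusted p = 2.2e-06). PCO4 (AT2G42670) was already bright in air (8.67 and 8.67) and changed by 0.55 (SE 0.14, adjusted p = 0.02). PCO5 (AT3G58670) and PCO3 (AT1G18490) were not called, with changes of 0.09 (SE 0.12) and -0.39 (SE 0.17). The call of PCO4 was lost without control replicate 1 (adjusted p = 0.089), without control replicate 2 (0.090), without submerged replicate 1 (0.089) and after centring on array medians (0.055), and PCO3 was called lower after centring (0.036).

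The 5 group VII ERF factors also differed among themselves. ERF71 (AT2G47520), also known as HRE2, stood at 3.56 and 3.92 in the controls and 8.70 and 8.30 in submerged plants, a rise of 4.76 (SE 0.27, adjusted p = 3.3e-05). ERF73 (AT1G72360), known as HRE1, rose from 3.61 and 3.97 to 5.35 and 5.78, and RAP2.2 (AT3G14230) rose from 8.78 and 8.46 to 10.03 and 10.38. EBP (AT3G16770), also known as RAP2.3, stood at 11.49 and 11.58 and then at 11.99 and 12.03, a change of 0.48 (SE 0.11). RAP2.12 (AT1G53910), which stood at 11.42 and 11.46 in the controls, was called lower at 10.85 and 11.04, a change of -0.50 (SE 0.14, adjusted p = 0.029). The call of EBP was lost without control replicate 1 (adjusted p = 0.085) and after centring (0.053). That of RAP2.12 was lost without control replicate 1 (0.11), without control replicate 2 (0.13) and without submerged replicate 1 (0.13), each leaving 1 locus of the list called lower.

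Among the remaining loci of the list, regulators of the low oxygen response and both haemoglobins held the rises. HRA1 (AT3G10040), a trihelix protein that restrains RAP2.12, rose from 4.29 and 4.27 to 10.51 and 10.79, a change of 6.37 (SE 0.16). LBD41 (AT3G02550), a transcription factor with a LOB domain, rose from 6.95 and 6.87 to 11.62 and 11.64. HB1 (AT2G16060), a haemoglobin that removes nitric oxide, rose from 6.45 and 6.15 to 12.37 and 12.39, a change of 6.08 (SE 0.18, adjusted p = 3.7e-06), and HB2 (AT3G10520), its paralog, rose by 1.47 (SE 0.20). PRT6 (AT5G02310), the ubiquitin ligase of the N-degron pathway, was not called (change 0.03, SE 0.12), nor was ACBP2 (AT4G27780) (change 0.05, SE 0.13), and ACBP1 (AT5G53470) fell by 0.67 (SE 0.12). Both ACBP proteins bind acyl-CoA at membranes and hold RAP2.12 there in air. AT3G03270, a listed locus with no symbol in the RefSeq table, rose from 8.77 and 8.92 to 12.40 and 12.48, a change of 3.60 (SE 0.11). Of the 18 members, 15 were higher on submerged replicate 2 than on submerged replicate 1.

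**Figure D2:**
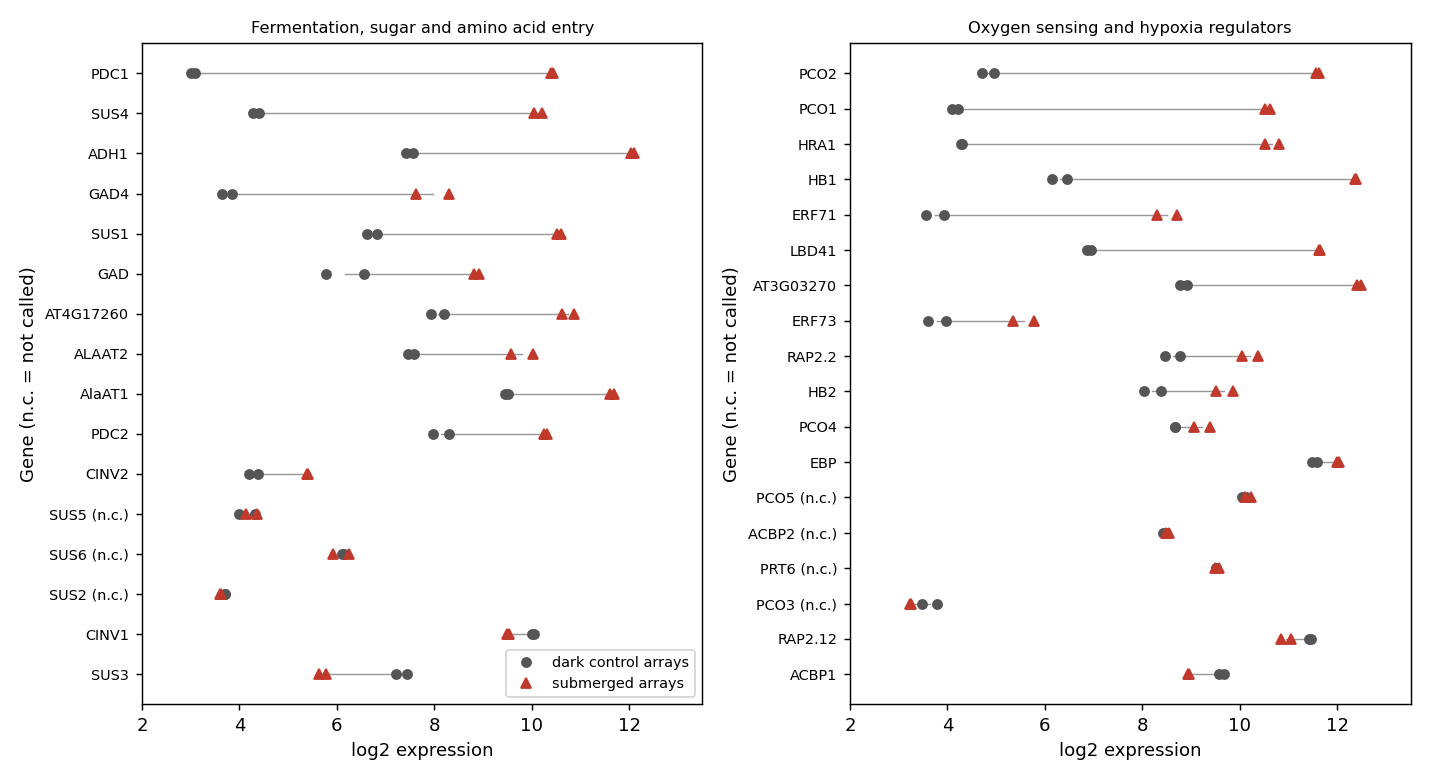
Levels (log2 expression) of all 16 members of the fermentation list (left) and all 18 members of the oxygen sensing list (right) on the 2 control arrays (circles) and the 2 submerged arrays (triangles), sorted by change, with lines joining the group means. Members marked n.c. were not called. The submerged arrays lie far to the right of the controls for PDC1, SUS4, PCO1, PCO2 and HRA1, and on the left for SUS3 and ACBP1.

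Glycolysis had a smaller median change than fermentation. Of 19 listed loci, 13 were called higher and 0 lower by limma (1 lower at an unadjusted p under 0.05), with a median change of 0.69. After centring, and without submerged replicate 2, 1 was called lower. The largest rises were of kinases that phosphorylate sugars. PFK6 (AT4G32840) and PFK3 (AT4G26270), phosphofructokinases, rose from 6.88 and 6.97 to 9.53 and 9.50 and from 8.25 and 8.77 to 11.06 and 10.88. HXK2 (AT2G19860), a hexokinase, rose by 1.41 (SE 0.13, adjusted p = 2.3e-04) from 7.58 and 7.75 to 9.07 and 9.08. The list does not hold FBA5 (AT4G26530), a fructose-bisphosphate aldolase that was among the largest falls of all loci, as given below.

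Most photosynthesis genes fell, largely by less than 2-fold. Of 24 nuclear photosystem subunits, 19 were called lower and 0 higher (limma; 1 higher at an unadjusted p under 0.05), against 18.8% of all loci called lower, with a median change of -0.59. PSBO2 (AT3G50820), a subunit of the oxygen-evolving complex, fell from 8.84 and 8.84 to 6.70 and 6.48, a change of -2.25 (SE 0.19, adjusted p = 1.4e-04). The photosystem I subunits PSAL (AT4G12800) and PSAH2 (AT1G52230) fell by 0.97 (SE 0.12) and 0.94 (SE 0.13). Without control replicate 2, 11 of the 24 were called lower. Of 20 light-harvesting proteins, which bind the chlorophyll that feeds both photosystems, 12 were called lower and 1 higher. LHB1B1 (AT2G34430) fell from 12.32 and 12.47 to 8.98 and 10.02, and its submerged arrays were farther apart than its controls. LHCB2.3 (AT3G27690) fell from 5.91 and 5.86 to 3.24 and 3.19, a change of -2.67 (SE 0.12). Light-harvesting genes of one subfamily are near-identical, so their probes may share signal. The 1 called higher, CAB2 (AT1G29920), was dim on every array (2.92 and 2.92 in the controls and 3.88 and 4.40 submerged).

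Carbon fixation and photorespiration genes moved little. Of 24 measured loci 9 were called lower and 1 higher, with a median change of -0.27. CA1 (AT3G01500), a carbonic anhydrase of the chloroplast, fell from 10.60 and 10.52 to 9.23 and 9.03. RBCS2B (AT5G38420), a small subunit of Rubisco, fell from 10.84 and 10.83 to 9.53 and 9.49. Rubisco small subunit genes are near-identical and may share signal. The 1 called higher, CP12-2 (AT3G62410), rose by 0.70 (SE 0.14); without control replicate 1 its adjusted p was 0.0504 and 0 were called higher, and without submerged replicate 2 there were 2.

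Chlorophyll genes were mostly lower in water than in dark air. Of 19 loci of chlorophyll synthesis and breakdown 11 were called lower and 1 higher. NYC1 (AT4G13250), the chlorophyll b reductase that starts breakdown of that pigment, fell from 10.82 and 10.88 to 8.81 and 9.43, a change of -1.74 (SE 0.20, adjusted p = 6.2e-04). NYE1 (AT4G22920) and SGR2 (AT4G11910), the stay-green proteins that take part in degreening, fell by 1.19 (SE 0.17) and 1.51 (SE 0.20). On the synthesis side GSA1 (AT5G63570), which makes the precursor 5-aminolevulinate, rose by 0.69 (SE 0.12). The count called lower was 6 without control replicate 1, 5 without control replicate 2 and 6 without submerged replicate 1.

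Many genes known to rise in carbon starvation were lower in submerged than in dark control plants. Of 23 listed loci 14 were called lower and 0 higher (limma; 1 higher at an unadjusted p under 0.05), with a median change of -0.78. ASN1 (AT3G47340), the asparagine synthetase that rises in dark leaves, stood at 12.50 and 12.58 in the controls and 10.17 and 10.42 in submerged plants, a change of -2.24 (SE 0.14, adjusted p = 4.3e-05). LKR (AT4G33150), which begins lysine breakdown, fell from 12.14 and 12.18 to 10.00 and 10.25. TPS11 (AT2G18700), a trehalose phosphate synthase family member, fell from 11.71 and 11.75 to 10.60 and 10.15. Both groups had been dark for the same 24 h, so these changes are relative to a dark and not to a lit plant.

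Starch genes moved both ways. Of 21 loci 12 were called lower and 3 higher, with a median change of -0.56. GBSS1 (AT1G32900), the granule-bound synthase that makes amylose, rose from 8.74 and 8.48 to 11.10 and 11.13, a change of 2.51 (SE 0.17, adjusted p = 6.5e-05). ISA3 (AT4G09020), a debranching enzyme of starch breakdown, fell from 9.85 and 9.83 to 8.10 and 8.37. BAM1 (AT3G23920), a chloroplast beta-amylase, fell by 1.19 (SE 0.12), and RCP1 (AT5G17520), the maltose exporter, fell by 1.23 (SE 0.23). The count called higher was 1 without control replicate 1, without control replicate 2, without submerged replicate 2 and after centring on array medians.

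Ethylene synthesis and perception rose at selected steps. Of 24 listed loci 11 were called higher and 4 lower, with a median change of 0.40. ARD3 (AT2G26400), an acireductone dioxygenase of the methionine salvage cycle that feeds ethylene synthesis, rose from 4.26 and 4.47 to 11.87 and 11.84, a change of 7.49 (SE 0.18, adjusted p = 2.9e-06). ACO1 (AT2G19590), an ACC oxidase that forms ethylene with oxygen, rose from 5.38 and 5.08 to 10.56 and 10.81, a change of 5.46 (SE 0.15). ETR2 (AT3G23150), an ethylene receptor, rose from 6.38 and 6.31 to 9.05 and 9.39. ACS5 (AT5G65800), an ACC synthase, fell from 5.18 and 5.34 to 3.38 and 3.59, and EIL1 (AT2G27050), a transcription factor of ethylene signalling, fell by 0.74 (SE 0.13). Without control replicate 2, 6 loci of the list were called higher.

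Most abscisic acid genes fell, while a pair of enzymes that break the hormone down rose. Of 24 loci 15 were called lower and 5 higher, with a median change of -0.89. CYP707A3 (AT5G45340) and CYP707A1 (AT4G19230), hydroxylases that inactivate abscisic acid, rose from 5.55 and 5.20 to 8.02 and 7.69 and from 4.41 and 5.04 to 6.20 and 6.92. OST1 (AT4G33950), a kinase of abscisic acid signalling, rose from 8.35 and 8.26 to 10.46 and 10.47. PP2CA (AT3G11410), a phosphatase induced by the hormone and acting against its signal, fell from 10.01 and 9.94 to 5.73 and 5.60, a change of -4.31 (SE 0.14, adjusted p = 5.0e-06). The dehydrin RAB18 (AT5G66400) fell from 9.22 and 9.21 to 3.72 and 4.24, and LTI65 (AT5G52300) fell from 6.36 and 6.45 to 3.19 and 3.58. The count called higher was 3 without control replicate 1 and 3 without control replicate 2.

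Cold and dehydration genes, many of them targets of the same hormone, had the lowest median of all lists, -1.40. Of 17 loci 13 were called lower and 2 higher. COR15A (AT2G42540), a chloroplast protein that protects membranes in frost, fell from 10.27 and 10.73 to 3.79 and 4.53, a change of -6.34 (SE 0.28, adjusted p = 1.3e-05). COR15B (AT2G42530), its near-identical neighbour, fell from 8.53 and 8.83 to 4.60 and 4.50, and the probes of the pair may share signal. LTI78 (AT5G52310), also called RD29A, fell from 8.91 and 9.08 to 5.53 and 5.33. The 2 that rose, RHL41 (AT5G59820) and STZ (AT1G27730), encode zinc finger proteins induced by many stresses, and went from 5.51 and 5.24 to 10.04 and 9.34 and from 6.10 and 6.11 to 9.59 and 9.53.

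Clock genes moved both ways. Of 17 loci 4 were called higher and 9 lower. The morning genes LHY (AT1G01060), RVE8 (AT3G09600) and CCA1 (AT2G46830) rose from 5.09 and 5.46 to 8.58 and 7.79, from 7.08 and 6.66 to 9.64 and 9.15 and from 7.39 and 7.38 to 9.85 and 9.23. ELF4 (AT2G40080), of the evening complex, fell from 8.36 and 8.48 to 5.83 and 6.33, a change of -2.34 (SE 0.20, adjusted p = 1.5e-04). FKF1 (AT1G68050), a blue light receptor, and PRR3 (AT5G60100), a pseudo-response regulator, fell by 1.50 (SE 0.19) and 1.50 (SE 0.13). Plants were sampled at 1 time after treatment, so a changed level and a shifted phase cannot be told apart.

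Of 25 cell cycle loci 13 were called lower and 2 higher, with a median change of -0.70. SYP111 (AT1G08560), the syntaxin of the cell plate also called KNOLLE, fell from 7.21 and 7.10 to 5.87 and 5.69. AUR2 (AT2G25880), a mitotic kinase, fell from 4.98 and 5.15 to 3.99 and 3.67. LGO (AT3G10525), an inhibitor of cell division, fell from 8.70 and 8.48 to 7.27 and 7.05, while ICK1 (AT2G23430), another inhibitor of cyclin-dependent kinases, rose by 1.07 (SE 0.15). The lower count was 8 without control replicate 1, 8 without control replicate 2 and 7 without submerged replicate 1, and the higher count was 1 without each of these in turn and after centring.

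Auxin, gibberellin and shade-type elongation genes held more falls than rises. Of 21 loci 10 were called lower and 2 higher, with a median change of -0.62. IAA29 (AT4G32280), an auxin response repressor, fell from 10.71 and 10.60 to 6.17 and 5.82, a change of -4.66 (SE 0.24, adjusted p = 2.3e-05). YUC9 (AT1G04180), an enzyme of auxin synthesis, fell from 5.11 and 6.31 to 3.57 and 3.16, with control arrays that differed more than the submerged ones. GA2OX6 (AT1G02400), which inactivates gibberellin, rose from 6.38 and 6.58 to 8.19 and 8.23, and PIF3 (AT1G09530) rose by 1.08 (SE 0.18).

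Cell wall loosening genes moved both ways within families. Of 33 xyloglucan endotransglucosylase/hydrolase (XTH) loci, enzymes that cut and rejoin wall xyloglucan, 14 were called lower and 4 higher. XTH6 (AT5G65730) fell from 9.82 and 9.80 to 4.04 and 3.73, a change of -5.93 (SE 0.13, adjusted p = 2.2e-06). XTR6 (AT4G25810) rose from 7.26 and 7.34 to 11.44 and 10.78, and XTH18 (AT4G30280) rose from 5.71 and 5.37 to 9.23 and 8.43. Without control replicate 1 the counts were 9 and 2, and without control replicate 2, 9 were called lower. Of 23 alpha-expansins 9 were called lower and 2 higher, the latter 1 without control replicate 1. EXPA16 (AT3G55500) fell from 10.25 and 10.16 to 5.42 and 5.54, and EXPA10 (AT1G26770) rose from 5.98 and 5.93 to 9.42 and 9.16, a change of 3.34 (SE 0.21, adjusted p = 4.7e-05).

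Of 34 aquaporins, the channels of water and small solutes, 14 were called lower and 3 higher, with a median change of -0.40. NIP2;1 (AT2G34390), a channel known to carry lactic acid, rose from 5.65 and 4.75 to 11.22 and 11.02, a change of 5.92 (SE 0.30, adjusted p = 2.2e-05). The tonoplast channel TIP2;2 (AT4G17340) fell from 10.36 and 10.37 to 7.17 and 7.14. The plasma membrane channels PIP1C (AT1G01620) and PIP1B (AT2G45960) fell by 1.67 (SE 0.16) and 1.57 (SE 0.11).

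Most genes of the mitochondrial stress signal rose. Of 19 loci 13 were called higher and 0 lower (limma; 0 lower at an unadjusted p under 0.05), with a median change of 2.47. The alternative oxidases AOX1D (AT1G32350) and AOX1A (AT3G22370), which pass electrons to oxygen outside the cytochrome pathway, rose from 3.86 and 3.72 to 10.71 and 9.88 and from 4.82 and 4.13 to 10.00 and 9.04. UGT74E2 (AT1G05680), a glucosyltransferase that acts on an auxin, rose from 4.09 and 3.56 to 10.72 and 9.96. On all 3 submerged replicate 1 was the higher, as it was in 17 of the 19 loci.

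Many heat shock and reactive oxygen genes rose. Of 23 loci 14 were called higher and 4 lower, with a median change of 1.41. RBOHD (AT5G47910), the NADPH oxidase that makes superoxide at the cell surface, rose from 5.72 and 4.99 to 10.75 and 10.53, a change of 5.28 (SE 0.24, adjusted p = 1.5e-05), while its relative RBOH F (AT1G64060) fell by 1.13 (SE 0.17). HSP18.2 (AT5G59720), a small heat shock protein, rose from 3.93 and 3.35 to 9.61 and 8.13, with submerged arrays far apart. The catalases CAT2 (AT4G35090) and CAT3 (AT1G20620), which remove hydrogen peroxide, fell by 1.33 (SE 0.13) and 1.00 (SE 0.13).

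Defence genes had the highest median of all lists, 2.77, with 16 of 19 called higher and 0 lower (limma; 0 lower at an unadjusted p under 0.05). CYP79B2 (AT4G39950) and PAD3 (AT3G26830), enzymes of camalexin synthesis, rose from 4.22 and 4.58 to 10.83 and 10.59 and from 3.72 and 3.49 to 9.94 and 9.29. Of 12 glucosinolate genes 8 were called higher and 1 lower, the latter 2 without control replicate 2. The largest rises were of CYP83B1 (AT4G31500), an indole branch enzyme, from 7.27 and 7.20 to 11.73 and 11.57, of MYB51 (AT1G18570), a regulator of that branch, from 7.47 and 7.49 to 11.69 and 11.45, and of SUR1 (AT2G20610), a lyase shared by the indole and aliphatic branches, from 6.95 and 6.77 to 10.37 and 10.17. MYB34 (AT5G60890), another indole branch regulator, fell from 3.86 and 3.87 to 2.77 and 2.64.

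Jasmonate synthesis rose in part. Of 28 loci 13 were called higher and 3 lower, the latter 1 without either control replicate. LOX4 (AT1G72520) and AOC1 (AT3G25760), enzymes of its synthesis, rose from 4.16 and 4.52 to 9.29 and 8.78 and from 5.09 and 4.54 to 9.44 and 8.69, while JAZ7 (AT2G34600), a repressor of the response, fell from 6.01 and 5.87 to 4.51 and 4.45. Of 8 nitrogen assimilation genes 4 were called higher and 2 lower. NIA1 (AT1G77760), a nitrate reductase, rose from 6.68 and 6.62 to 10.27 and 10.51, a change of 3.74 (SE 0.24, adjusted p = 5.0e-05). The nitrate transporter NRT1.1 (AT1G12110) rose from 8.00 and 7.65 to 10.40 and 10.53, and GSR 1 (AT5G37600), a cytosolic glutamine synthetase, rose by 2.21 (SE 0.15). The lower count of the nitrogen list was 0 without control replicate 1, control replicate 2 or submerged replicate 1, and 1 without submerged replicate 2.

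Transcription factor families differed in how many members rose. Of 71 WRKY loci, a family known for its part in defence, 39 were called higher and 4 lower, the latter 2 without control replicate 2 or either submerged replicate. WRKY55 (AT2G40740), WRKY46 (AT2G46400) and WRKY59 (AT2G21900) rose by 5.69 (SE 0.46), 5.08 (SE 0.24) and 5.03 (SE 0.35). Of 26 ERF loci 14 were called higher and 3 lower, the latter 1 without control replicate 2 or submerged replicate 1. ERF5 (AT5G47230) rose from 5.29 and 4.50 to 8.82 and 8.49, and ERF53 (AT2G20880) fell from 6.54 and 6.78 to 4.70 and 3.72. Of 99 NAC loci 26 were called higher and 7 lower, the latter 4 without either control replicate and 11 after centring. NAC061 (AT3G44350) rose from 3.06 and 3.44 to 8.30 and 8.39, NAC042 (AT2G43000) rose from 4.28 and 4.09 to 8.23 and 7.96, and RD26 (AT4G27410), a factor of abscisic acid signalling, fell by 1.23 (SE 0.11). Of 125 MYB loci 21 were called higher and 15 lower, 9 of them without control replicate 1. These shares of 16.8% and 12.0% lie near the background, and the median change of 0.05 became -0.08 after centring. MYB15 (AT3G23250) rose from 3.26 and 3.45 to 8.79 and 8.81, and MYB102 (AT4G21440) fell from 6.23 and 5.90 to 3.17 and 2.89.

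Lipid, wax, pigment and inositol genes held a few large changes. FTM1 (AT1G43800), which encodes a stearoyl-ACP desaturase, an enzyme that uses oxygen to put a double bond into a fatty acid, rose from 4.13 and 4.88 to 12.16 and 12.30, a change of 7.73 (SE 0.25, adjusted p = 5.0e-06). SSI2 (AT2G43710), of the same enzyme family, rose from 9.66 and 9.79 to 11.51 and 11.60. CER1 (AT1G02205) and CER3 (AT5G57800), which together make the alkanes of leaf wax, fell by 1.44 (SE 0.18) and 1.35 (SE 0.15). Of the 19 lipid and cuticle loci 5 were called higher and 5 lower, the latter 3 without control replicate 1 or submerged replicate 1. Its median of 0.12 became -0.01 after centring. Of 13 flavonoid loci 6 were called higher and 0 lower (limma; 0 lower at an unadjusted p under 0.05), the former 2 without control replicate 1 and 3 without control replicate 2. MYB90 (AT1G66390), a regulator of anthocyanin synthesis, rose from 3.89 and 4.13 to 6.22 and 6.50. Of 7 inositol genes 4 were called lower and 0 higher (limma; 1 higher at an unadjusted p under 0.05). MIOX4 (AT4G26260), an oxygenase that breaks inositol down, fell from 8.93 and 9.20 to 3.59 and 2.87, and MIPS1 (AT4G39800), which makes it, fell from 8.76 and 8.45 to 5.86 and 6.17. MIPS2 (AT2G22240) and MIPS3 (AT5G10170), on the same list, were not called, with changes of 0.34 (SE 0.17) and 0.46 (SE 0.18).

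Among the largest falls of all loci, chosen by size alone, were 2 ferritins, the proteins that store iron in plastids. FER1 (AT5G01600) fell from 11.41 and 11.51 to 6.58 and 6.89, and FER4 (AT2G40300) fell from 9.69 and 9.58 to 4.14 and 3.88. FBA5 (AT4G26530), a fructose-bisphosphate aldolase, fell from 10.37 and 10.19 to 4.51 and 4.66, a change of -5.70 (SE 0.14, adjusted p = 2.9e-06). AIRP2 (AT5G01520), a ubiquitin ligase of abscisic acid signalling, fell by 4.80 (SE 0.19). The single largest fall was at AT1G30250, a locus without a symbol, from 10.39 and 10.52 to 3.88 and 3.31. Among the 15 largest rises were Prx37 (AT4G08770), a class III peroxidase of the cell wall, which rose by 6.75 (SE 0.56) with submerged arrays at 12.05 and 11.75, and 7 loci other than AT5G10040 that carry no symbol.

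**Figure D3:**
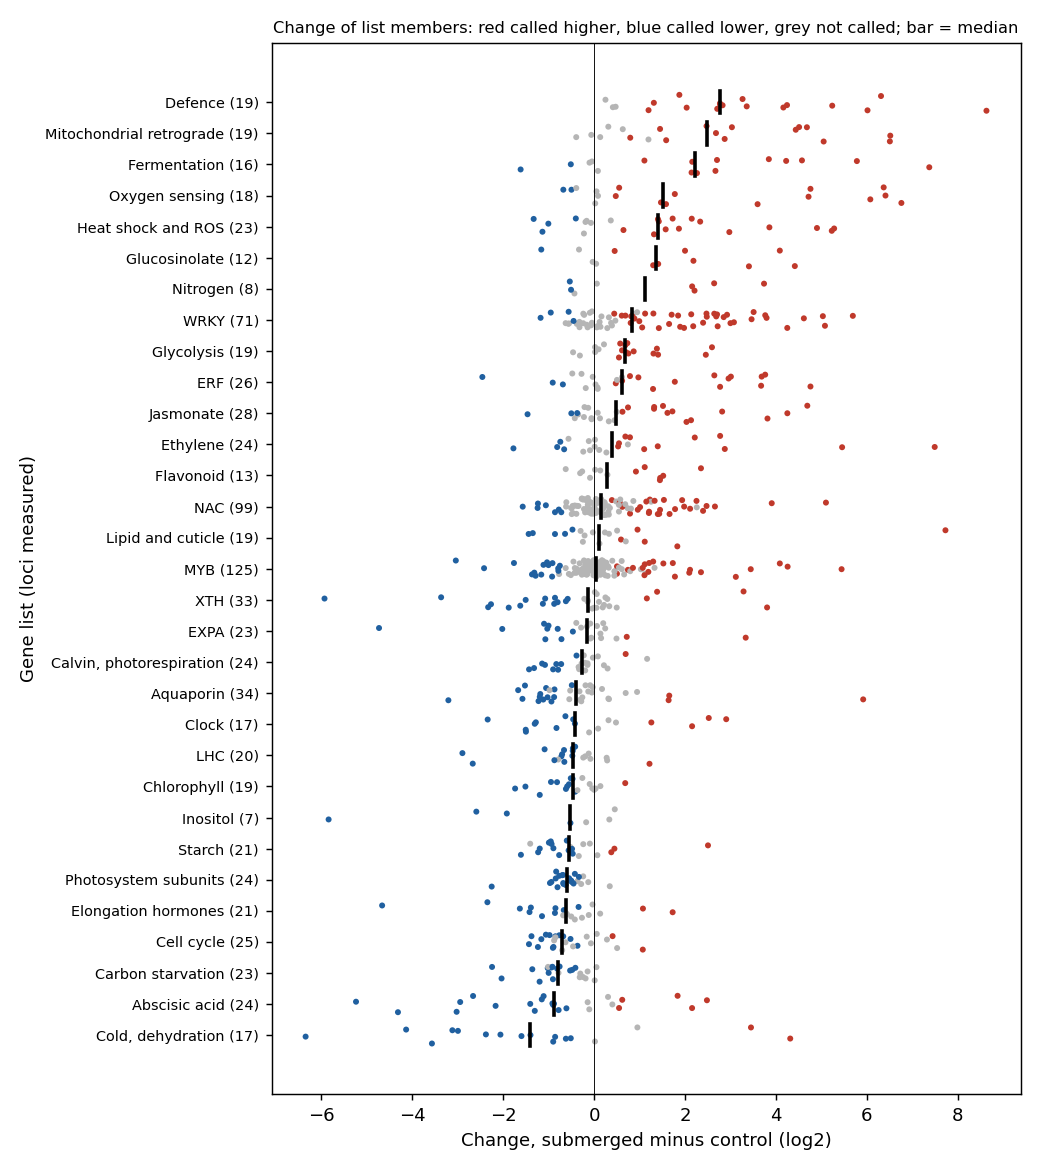
Change of each measured member (submerged minus control, log2) for 31 gene lists, with the number of loci in brackets. Red points were called higher, blue points lower and grey points were not called, and the black bar is the list's median. Medians run from 2.77 for defence to -1.40 for cold and dehydration, and most lists hold members that moved both ways.

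Markers of cell types were read beside these lists. The leaf genes measured included RBCS1A, the main Rubisco small subunit gene, at 12.8 in the controls and 12.7 in submerged plants, and 1 of 5 leaf markers was called lower and 1 higher. Of 5 root markers, the root hair genes stayed between 2.53 and 3.32 on all 4 arrays, and 1 locus, PYK10 (AT3G09260), was bright in the controls (10.74 and 10.43) and fell to 9.33 and 9.58. The remaining root marker, CASP1 (AT2G36100), stood at 5.67 and 5.49 in the controls and at 5.53 and 4.99 in submerged plants, and was not called. Of 3 flower markers 1 was called higher: PI (AT5G20240), a floral homeotic gene, rose from 5.89 and 5.62 to 8.95 and 8.53, while the other 2 stayed between 2.63 and 3.84. Guard cell markers fell in 3 of 4 cases. KAT1 (AT5G46240), a potassium channel of guard cells, went from 8.08 and 7.91 to 6.68 and 6.49, and FMA (AT3G24140), a factor of guard cell fate, from 9.18 and 9.10 to 8.27 and 8.13. The mean over the 4 guard cell markers was 7.84 and 7.70 in the controls and 6.76 and 6.61 in submerged plants. Most listed abscisic acid and dehydration genes, and the wax genes CER1 and CER3, fell beside them, while other members of those lists rose. The part of guard cells in those falls was not tested. Of 3 phloem markers 1 was called higher and 1 lower, of 3 epidermis markers 1 lower, and of 3 meristem markers 0 (limma; 0 at an unadjusted p under 0.05). The call lower was lost for phloem without any 1 juvenile array, and for the epidermis gene PDF1 without control replicate 2 or either submerged replicate, although 1 epidermis marker was still called lower without submerged replicate 2.

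The 2 submerged arrays differed from each other more than the 2 controls did. Across loci r was 0.990 between them and 0.995 between controls, and between 0.914 and 0.931 across treatments, with no p since loci are not replicates. Submerged replicate 1 exceeded replicate 2 by at least 1 at 427 loci and was lower by as much at 188, against 141 and 75 for the controls. Of 4305 loci called higher 2864 were higher on submerged replicate 1, and of 5220 called lower 3413 were lower on it, so that array lay farther from the controls in both directions. Some lists ran the other way by their medians, among them oxygen sensing, ethylene, carbon starvation, inositol and aquaporin genes. The 5 called loci with the widest gap were sks8 (AT1G21850), AT1G78760, AT4G26010, CYP76C5 (AT1G33730) and AT1G48980. For sks8 the submerged arrays stood at 7.80 and 5.01 over controls at 2.96 and 3.17. Its call was lost without control replicate 1 (adjusted p = 0.069) and without control replicate 2 (0.057), as was that of AT1G78760 (0.056 and 0.061). AT4G26010 lost its call without control replicate 1 (0.092), control replicate 2 (0.19), submerged replicate 1 (0.082) or any adult array (0.070).

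**Figure D4:**
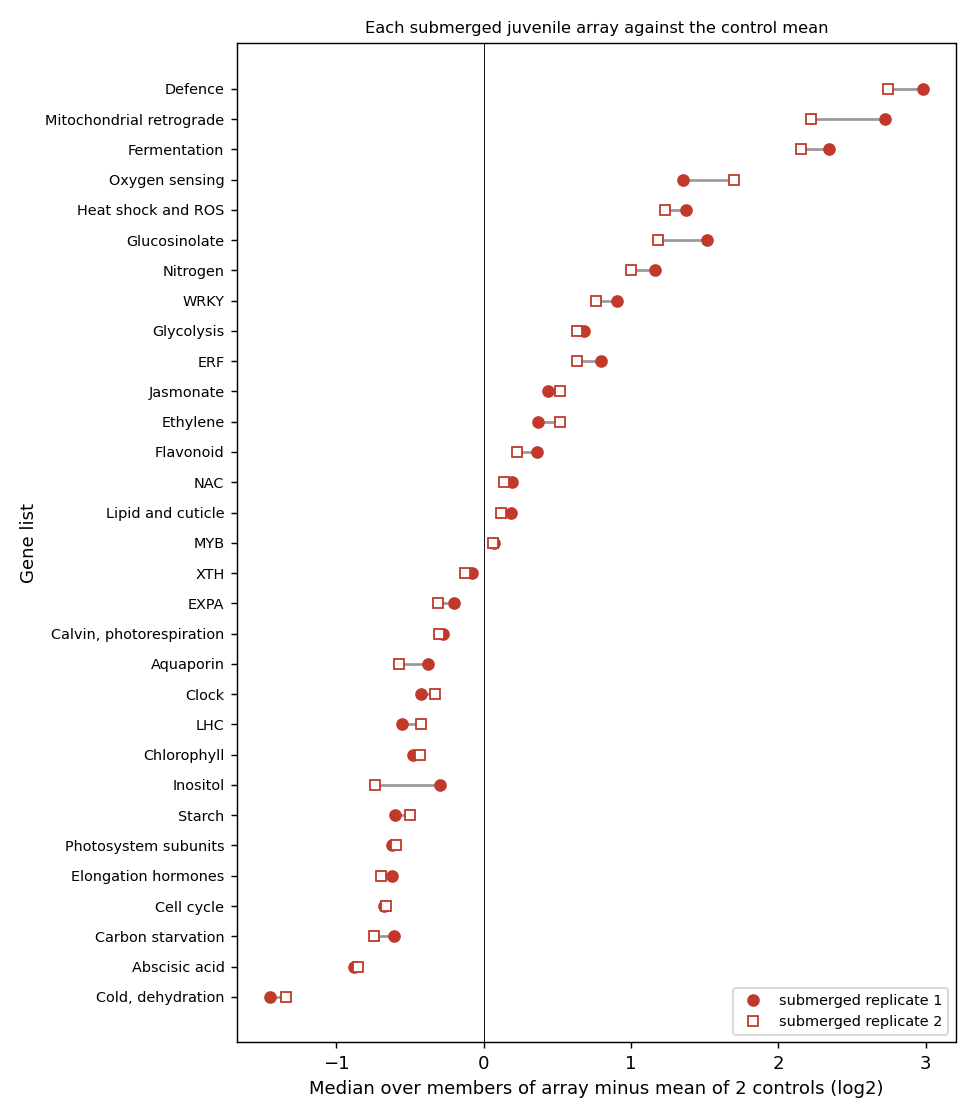
Median over the members of each list of 1 submerged array minus the mean of the 2 controls (log2), with submerged replicate 1 as a filled circle and replicate 2 as an open square. The replicates lie on the same side of 0 for each of the 31 lists plotted, with the mitochondrial stress list at 2.72 and 2.22. Cell type markers are not plotted, and the leaf and meristem marker medians lie on opposite sides of 0 on the replicates.

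Whether any of this differed in adult plants was tested as an interaction, the adult response minus the juvenile one, with its own controls at each age. No locus was called (0 of 27826, 0%, limma), the smallest adjusted p being 0.143, and 2030 loci had an unadjusted p under 0.05. Without submerged replicate 2, 23 loci were called. Among the 5 loci with the smallest p, AT1G26390 changed by 5.30 in juvenile plants and by -0.13 in adult plants, and its adult controls stood higher, at 7.21 and 7.90, than its juvenile controls, at 5.66 and 5.45. SDR4 (AT3G29250) changed by 3.74 and 0.62, AT2G04070 by 5.63 and 2.36, and AT1G50040 by -2.53 and -1.03, in juvenile and adult plants in turn. AOX1D changed by 6.51 in juvenile and 2.07 in adult plants (interaction adjusted p = 0.19), and PDC1 by 7.37 and 7.37 (interaction adjusted p = 0.9997). The median of the mitochondrial stress list was 2.47 in juvenile and 0.62 in adult plants, with 0 of its 19 loci called in the interaction and 9 at an unadjusted p under 0.05, and that of the fermentation list was 2.21 and 1.82. None of these differences passed the test, so none is shown to be particular to juvenile plants.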

How the data were processed

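Each array was hybridised with biotin-labelled total RNA by a standard Affymetrix protocol, per the labels. The values are log2 expression, deposited by the authors as 1 table of 27826 loci by 8 arrays. RMA and limma are named in the submitters' processing notes, which give no versions, array model or probe assignment. RMA quantile-normalises arrays, so an array-wide shift in RNA would be hidden. No array scan, batch or build was given in the sources used here, and the number of arrays limits the precision.

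All 8 arrays entered 1 limma fit with a mean for each of the 4 groups (limma 3.58.1 in R 4.3.3, lmFit and eBayes with default prior, 4 residual degrees of freedom and 2.99 prior ones). The contrasts submerged minus control in juvenile plants, in adult plants, and their difference were tested two-sided, with Benjamini-Hochberg adjustment over 27826 loci. Loci were called at an adjusted p under 0.05, and every adjusted p is from limma. With 2 arrays against 2, the smallest p that exact permutation allows is 0.333. Plots used Python 3.11.15 and matplotlib 3.10.9.

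The 38 lists and families hold 440 listed loci, or are matched by gene symbol, and have 1 listed locus not measured. Lists, tests and alternatives were chosen with earlier results of these data known. Named genes are the 15 largest rises and falls, up to 3 of each per list, all fermentation and oxygen sensing members, the 5 widest gaps between submerged arrays and the 5 smallest interaction p-values. Marker genes of the leaf that were not called are named beside these. Symbols come from the RefSeq table of TAIR10.1, which matched 27241 loci. Alternatives covered scaling, the variance prior, low values, the replicate number as a block, the threshold and leaving out each array.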

Additional observations from a re-analysis of the deposited data

Results flagged for a closer look

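CYP89A2, a cytochrome P450 gene, moved in opposite directions at the 2 ages. In juvenile plants it stood at 5.07 and 5.04 in the controls and at 6.45 and 6.14 in submerged plants, a rise of 1.24. In adult plants it stood at 5.75 and 5.73 in the controls and at 5.37 and 5.43 in submerged plants, a change of -0.34. All juvenile arrays of one treatment lay above the other, and all adult arrays the opposite way. The interaction, adult minus juvenile response, was -1.58 (limma, adjusted p = 0.19), so the difference did not pass the test. CYP89A2 was among the named genes because its interaction p was among the 5 smallest of 27826 loci. It was flagged because its arrays separated in opposite directions at the 2 ages, so that pattern is the rule of choice and carries no test. Only named genes were searched. NDB2 (AT4G05020), of the mitochondrial stress list but not searched, changed by 0.80 in juvenile and -0.61 in adult plants (interaction adjusted p = 0.31, limma).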

How the results depend on the processing

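The juvenile comparison called 9525 loci, 8522 in a fit of only the 4 juvenile arrays, between 8916 with the replicate block and 10677 after centring on array medians under the other changes of fit and scaling, and between 6574 and 9482 when 1 array was left out. At an adjusted p under 0.01 it called 6105. Calls of at least 2-fold numbered 4803, between 4395 and 5194 with 1 array left out, and 3036 once the dimmest 50% of loci were removed, which leaves 13913 loci to test. The replicate numbers did not pair the samples (correlation of deviations between juvenile groups 0.002, and between -0.113 and 0.049 over all pairs of groups), and the block called 8916 loci. The interaction called 0 loci, 28 with an intensity trend and robust prior, and between 0 and 23 with 1 array left out, the 23 without juvenile submerged replicate 2. Of the genes named, 5 changed sign in some setting. Centring gave PCO5 a change of -0.043, PRT6 -0.104, ACBP2 -0.076 and SUS5 -0.045. With 1 juvenile array left out, SUS5 ran from -0.080 without control replicate 1 to 0.251, PRT6 from -0.0079 without submerged replicate 2 to 0.061, and SUS6 from -0.212 to 0.124 without submerged replicate 2. None of these 5 genes was called in the fit reported. Of 210 named genes, 27 lost their call without control replicate 1, 21 without control replicate 2, 19 without submerged replicate 1, 11 without submerged replicate 2 and 7 with the block. Dim loci, with few calls, limit what these arrays can show.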

Other observations

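Gene families sharing a symbol stem were surveyed after the data were seen, over all 95 stems with at least 15 measured members. Those described were picked for their counts and are mostly outside the lists above, which hold 2 of the IAA loci and 1 of the BGAL loci given here. Their counts carry no test and stand beside 15.5% of all loci called higher and 18.8% called lower. A stem is the letters of a symbol before its first digit. It may miss family members named otherwise and may hold loci of another family, so the counts are of stems. Of 40 cysteine-rich receptor-like kinases (CRK), membrane proteins known for their part in stress and pathogen responses, 29 were called higher and 3 lower, with a median change of 1.91. CRK31 (AT4G11470) stood at 3.71 and 4.05 in the controls and at 10.37 and 10.11 in submerged plants, a rise of 6.37 (SE 0.34). CRK20 (AT4G23280) rose from 3.99 and 3.66 to 9.23 and 9.16. These kinases include close copies, so their probes may share signal. The 3 called lower became 0 without control replicate 1, and 1 without control replicate 2 or submerged replicate 1. Of 18 cyclic nucleotide-gated channels (CNGC), which pass cations such as calcium, 8 were called higher and 1 lower, the former 5 without control replicate 1. CNGC12 (AT2G46450) rose from 6.23 and 5.21 to 10.40 and 10.46, a change of 4.71 (SE 0.31), whereas CNGC15 (AT2G28260) fell from 6.37 and 6.35 to 5.06 and 5.45. Of 29 calcium-dependent protein kinases (CPK) 13 were called higher and 2 lower, the latter 1 without either control replicate or submerged replicate 1. CPK27 (AT4G04700) rose by 3.77 (SE 0.38) and CPK31 (AT4G04695), a neighbour of it on the chromosome by locus number, by 3.25 (SE 0.19). Of 27 tau-class glutathione transferases (GSTU), which attach glutathione to toxic compounds, 14 were called higher and 4 lower, the latter 2 without control replicate 2 or submerged replicate 2. GSTU24 (AT1G17170) rose from 3.44 and 3.90 to 10.01 and 9.35, while GSTU5 (AT2G29450) fell from 9.85 and 10.00 to 5.83 and 6.19.

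Other stems had more members called lower than higher. Of 24 Aux/IAA loci (IAA), repressors of the auxin response, 12 were called lower and 1 higher, the former 8 without control replicate 2. The 1 called higher, IAA10 (AT1G04100), rose from 5.64 and 5.37 to 8.43 and 8.08. Of 16 SAUR loci, small proteins raised by auxin, 10 were called lower and 3 higher, the former 6 without control replicate 1 or submerged replicate 1. SAUR29 (AT3G03820) fell from 9.02 and 8.96 to 6.50 and 6.36, and SAUR9 (AT4G36110) rose by 1.81 (SE 0.12). Auxin response factors (ARF) had 5 of 23 called lower, near the background, and 3 without either control replicate. Of 15 beta-galactosidases (BGAL), enzymes that trim wall sugars, 9 were called lower and 1 higher, with a median change of -0.91. The 1 called higher was lost without either control replicate, without submerged replicate 2 and after centring on array medians. BGAL10 (AT5G63810), the lowest of them, fell from 11.02 and 10.95 to 8.90 and 9.52. Of 30 arabinogalactan proteins (AGP), glycoproteins of the cell surface, 14 were called lower and 3 higher, with a median change of -0.56. AGP5 (AT1G35230) rose from 3.87 and 3.95 to 9.28 and 8.87, and AGP22 (AT5G53250) fell from 7.62 and 8.00 to 4.40 and 4.15. Of 41 loci with the stem TBL, a family that acetylates wall sugars, 8 were called lower and 4 higher, again near the background for the lower calls, which were 4 without control replicate 1 and 5 without submerged replicate 1. The 4 higher became 2 without control replicate 2 or submerged replicate 1. Of 22 loci with the stem RPL, ribosomal proteins of the large subunit, 10 were called lower and 0 higher (limma; 0 higher at an unadjusted p under 0.05). Of these, 3 were called lower without either control replicate, 4 without submerged replicate 1 and 6 without submerged replicate 2.

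Of 174 loci annotated as miRNA genes 8 were called higher and 10 lower. These shares of 4.60% and 5.75% lie below the 15.5% and 18.8% of all loci. Calls were fewer among dim loci, with 2.62% called higher and 1.80% lower in the dimmest quartile of all loci by mean level. Whether miRNA loci were called less often than other loci of like level was not tested. The arrays read transcripts at the miRNA loci, and mature miRNA was not measured. MIR827 (AT3G59884) rose from 3.18 and 2.67 to 5.42 and 5.49, a change of 2.53 (SE 0.23), and MIR167a (AT3G22886) rose from 6.29 and 6.27 to 8.18 and 8.71. Its relatives MIR167b (AT3G63375) and MIR167d (AT1G31173) were called lower, with changes of -1.30 (SE 0.21) and -1.40 (SE 0.42). MIR171b (AT1G11735) fell from 5.94 and 6.30 to 3.28 and 3.21, a change of -2.87 (SE 0.26). The lower count was 16 after centring on array medians.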
